A study of Mus musculus with 15 samples.

Results

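The genes described here encode apolipoproteins, the protein coats of plasma lipoprotein particles, and the transfer protein that loads lipid onto the nascent particle: Apob, Mttp, Apoe, Apoc1, Apoc3, Apoa5, Apoa4, Apoa1, Apoa2 and Apom. They were taken as all probe sets that the platform annotation ties to exactly 1 of these symbols, a probe set being a group of short probes against a single transcript region. This gave 17 of 34945 probe sets with a single symbol, and 10 of 18193 genes. Apoa1 had 4 probe sets, Apob, Mttp, Apoa4 and Apom had 2 each, and the other genes had 1 each. All 10 genes were bright enough to be tested.

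Messenger RNA was measured on 15 arrays of cultured primary hepatocytes from C57BL/6 mice, in 5 groups of 3 arrays. The study asked what changes when IRE1a is made in excess or is knocked down. WT IRE1a cells received an adenovirus carrying wild-type IRE1a, and S724A IRE1a cells received a form of IRE1a with a serine replaced by alanine. EGFP cells received a control virus with a fluorescent protein, and these 3 groups were infected for 48 hours and got no further treatment. In a separate arm, shIRE1a cells carried a hairpin against IRE1a and shCON cells a control hairpin for 72 hours, and both then got glucagon for 4 hours. Every culture thus carried an adenovirus, the IRE1a knockdown rests on 1 hairpin, and both hairpin groups had glucagon. Neither the ages nor the number of mice were available from the descriptions used. The series text states 3 independent experiments, but no label ties arrays of the same number to the same experiment, so p-values measure the spread between these arrays. In bulk RNA, fewer cells of a type and less RNA per cell cannot be told apart.

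Hepatocytes secrete triglyceride as very low density lipoprotein (VLDL), built on a single molecule of apolipoprotein B in the endoplasmic reticulum (ER). Microsomal triglyceride transfer protein, the product of Mttp in complex with protein disulfide isomerase (P4hb), adds the first lipid, and the smaller apolipoproteins join the particle and set how it is hydrolysed and cleared. Ern1 encodes IRE1a, an ER membrane protein that senses unfolded proteins and splices the Xbp1 message, and earlier work in mice tied this pathway to VLDL secretion through protein disulfide isomerase.

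Of the 10 genes 6 lie in 2 clusters of the mouse genome (coordinates of RefSeq, GRCm38.p6). Apoa1, Apoc3, Apoa4 and Apoa5 share 43.3 kb of chromosome 9 (chr9:46228630-46271921), and Apoc1 and Apoe share 11.8 kb of chromosome 7 (chr7:19689480-19701310). Apob lies at chr12:7977629-8016839, Mttp at chr3:138089855-138143418, Apoa2 at chr1:171221564-171226379 and Apom at chr17:35128997-35131801. The RefSeq promoter table held 8 of the 10 genes. The 250 bases before the gene start are shown for Apoa4 and Mttp, on which the results below turn, and for Apoa5, the neighbour of Apoa4. Each runs 5′ to 3′ on the strand of its gene, and capitals mark the motifs found.

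Apoa4 (chr9:46240594-46240843, plus strand): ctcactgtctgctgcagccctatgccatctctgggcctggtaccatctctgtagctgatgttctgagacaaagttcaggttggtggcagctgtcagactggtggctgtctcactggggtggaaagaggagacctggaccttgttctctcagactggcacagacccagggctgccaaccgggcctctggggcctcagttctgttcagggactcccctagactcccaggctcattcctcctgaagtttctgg
Mttp (chr3:138143419-138143668, minus strand): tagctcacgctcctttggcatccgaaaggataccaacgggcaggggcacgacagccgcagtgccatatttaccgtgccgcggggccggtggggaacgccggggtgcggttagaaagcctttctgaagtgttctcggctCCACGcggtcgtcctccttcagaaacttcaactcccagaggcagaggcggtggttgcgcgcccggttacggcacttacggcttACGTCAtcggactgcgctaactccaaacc
Apoa5 (chr9:46268358-46268607, plus strand): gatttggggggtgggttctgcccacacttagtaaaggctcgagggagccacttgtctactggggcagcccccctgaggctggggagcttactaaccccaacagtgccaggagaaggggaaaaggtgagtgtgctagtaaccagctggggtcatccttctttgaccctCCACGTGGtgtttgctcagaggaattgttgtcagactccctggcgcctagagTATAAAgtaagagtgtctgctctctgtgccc

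Motifs were sought on both strands of the 250 bases. Of all 32851 promoters of this length, 28.3% held CCACG, a core of ER stress elements. The CRE core, TGACGT, was held by 6.47% and the box CCAAT by 33.8%. The hexamer AGGTCA, which many nuclear receptors bind, was held by 14.0%. CAAAGTC, part of an HNF4 site, was held by 3.84%, and the HNF1 core GTTAAT by 6.43%. TATAAA was held by 12.4%. The Mttp window held 1 CCACG and 1 CRE core, which on this strand reads ACGTCA. The Apoa5 window held 1 TATAAA and, overlapping each other as CCACGTGG, a CCACG on each strand. The Apoa4 window held none of these motifs, which says only that these letters are not in it.

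Signals are log2 values in what follows, differences are between group means of log2 signals with limma's standard error, and a gene passed at an adjusted p under 0.05 over all 16294 genes tested. Ern1 was read first, as a check of the labels. Its signals were 7.60, 7.44 and 7.51 in shIRE1a cells, against 8.89, 8.96 and 9.10 in shCON cells (2.76-fold lower, adjusted p = 0.00293). Of the 5 Ern1 probe sets only this one passed, and their differences ran between -1.47 and 0.35. With the IRE1a viruses it read 9.30, 8.89 and 9.07 in WT IRE1a cells and 9.68, 9.04 and 9.54 in S724A IRE1a cells, against 9.41, 8.68 and 8.81 in EGFP cells, a difference of 0.12 ± 0.19 with WT IRE1a and of 0.46 ± 0.19 with S724A IRE1a (adjusted p = 0.775 and 0.159, the second 0.0215 with the block and 0.0362 without EGFP replicate 1). Whether its probes read the viral message was not tested. Xbp1 rose by 0.63 ± 0.11 with WT IRE1a and by 0.52 ± 0.11 with S724A IRE1a (adjusted p = 0.00309 and 0.0137), the second call being lost without EGFP replicate 2 or S724A IRE1a replicate 2 (adjusted p up to 0.0737), and it differed by -0.08 with the hairpin (adjusted p = 0.881). Of the 4 Xbp1 probe sets 3 passed with each form of IRE1a, and the lowest differed by 0.06 with WT IRE1a and 0.05 with S724A IRE1a. Summed hepatocyte markers (8 of 10 listed genes on the arrays, none below a signal of 4) lay between 15.75 and 16.16 on every array. Of the 8, only Hnf4a passed, higher with WT IRE1a, where 5.08% of all genes rose. A block for the replicate number called 3 higher with WT IRE1a and 2 higher with S724A IRE1a (10.6% and 8.89% of all genes).

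WT IRE1a against EGFP showed no apolipoprotein gene and no Mttp change past the threshold. Of the 10 genes limma called 0, where 7.67% of all genes tested were called, and 0 at an unadjusted p under 0.05, where 21.4% were. The 10 differences ran between -0.66 and 0.31 with a median of 0.07, beside a median of 0.00 over all genes. With a block for the replicate number in either arm, so that arrays of the same number are compared, 1 of the 10 was called (15.6% of all genes), and that gene was Apoa4. The same fit of the S724A IRE1a arrays against the same EGFP arrays called 0 of 10 (6.12% of all genes), 0 of 10 at an unadjusted p under 0.05 (24.0% of all genes) and with the block 1 of 10 (14.4%), again Apoa4. Both comparisons share the 3 EGFP arrays, so their values are set side by side here and not counted as separate evidence.

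**Figure D1:**
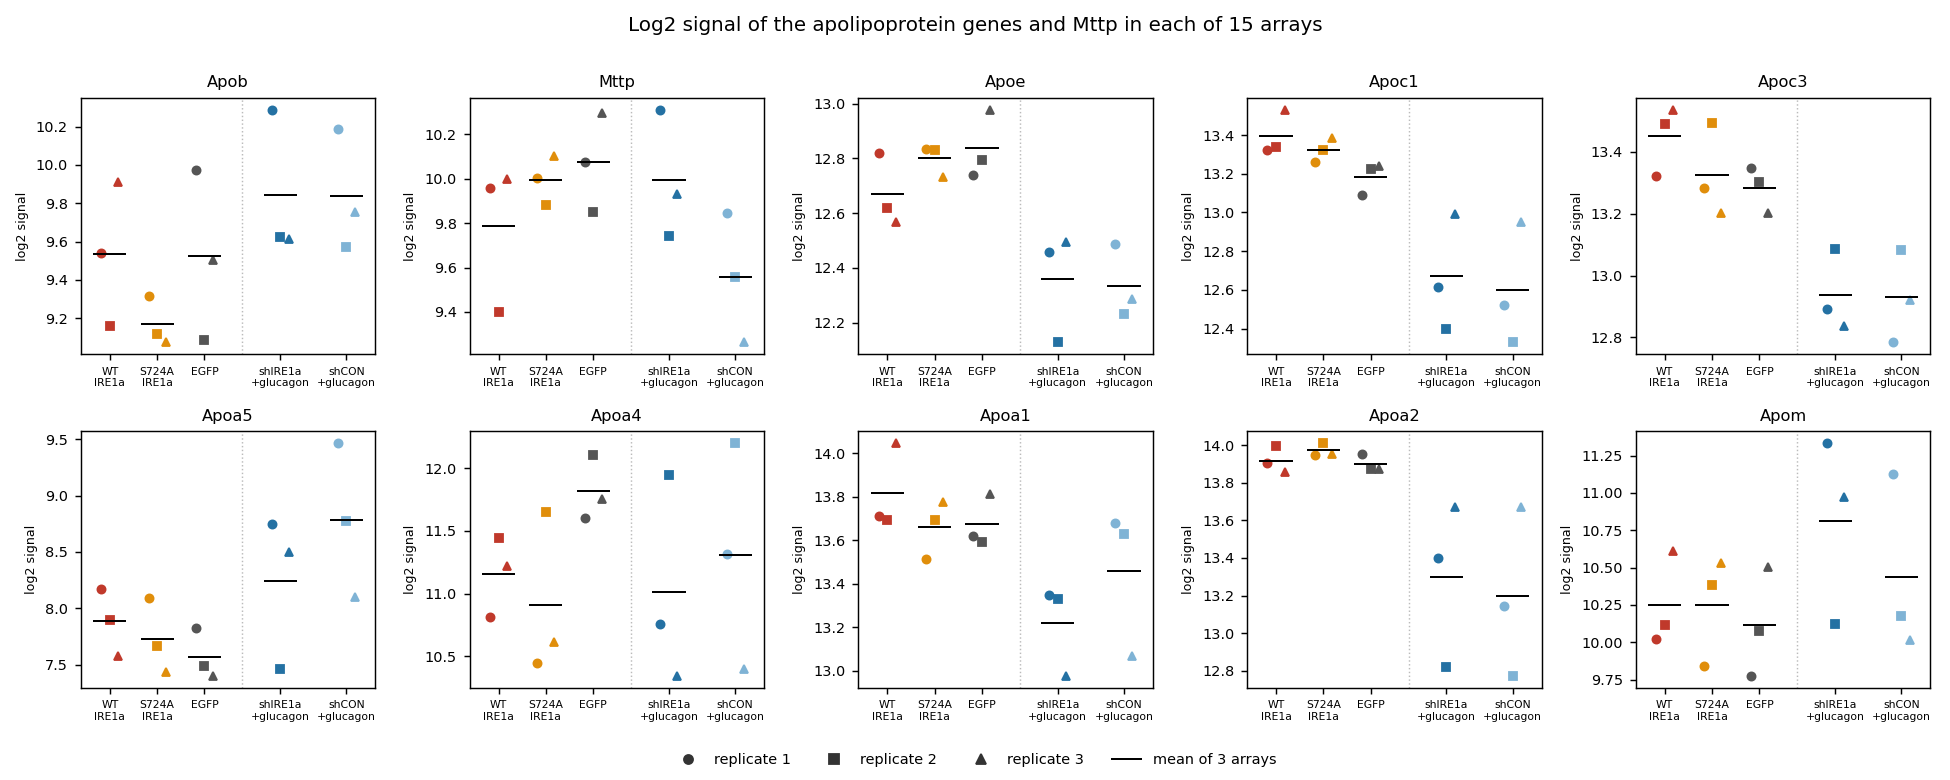
Log2 signal of each of the 10 genes on all 15 arrays (vertical axis, a separate scale for each gene) by group (horizontal axis), with symbols for the replicate number and a bar at the mean of 3 arrays. A dotted line parts the 48-hour groups from the 72-hour groups with glucagon. Apoc1, Apoc3, Apoe and Apoa2 are higher on every 48-hour array than on every 72-hour array. The share of all genes with such a split was not counted.

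Apoa4, an intestinal and hepatic apolipoprotein that in mice enlarges secreted VLDL particles, was lower with both forms of IRE1a. Its signals were 10.81, 11.45 and 11.22 in WT IRE1a cells and 10.45, 11.65 and 10.62 in S724A IRE1a cells, against 11.60, 12.11 and 11.76 in EGFP cells. All 3 WT IRE1a arrays lay below all 3 EGFP arrays, while S724A IRE1a replicate 2 lay just above the lowest EGFP array. In every same-number pair the IRE1a array was the lower, with differences of -0.79, -0.66 and -0.54 for WT IRE1a and of -1.15, -0.45 and -1.14 for S724A IRE1a. The mean differences were -0.66 ± 0.45 (1.58-fold lower) and -0.92 ± 0.45 (1.89-fold lower), with adjusted p = 0.434 and 0.229 without the block and 0.0122 and 0.00262 with it. The call with the block was lost for both when replicate 1 was left out (adjusted p = 0.104 and 0.0578), and the differences were then -0.60 and -0.80.

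Both Apoa4 probe sets gave this pattern. The second, which correlated with the first at r = 0.997 over the 15 arrays, differed by -0.76 ± 0.48 with WT IRE1a and by -0.94 ± 0.48 with S724A IRE1a, with adjusted p = 0.0193 and 0.00835 over all probe sets with the block. Of the 17 probe sets of the 10 genes, the block called 3 with WT IRE1a (11.6% of all probe sets tested) and 2 with S724A IRE1a (10.4%). Krt19, a keratin of bile duct cells, was at 5.34 ± 0.29 and 5.37 ± 0.31 with WT and S724A IRE1a, against 5.85 ± 0.28 with EGFP (SD, n = 3 each). It was lower in every same-number pair, but the groups overlapped. Krt19 did not pass without the block (adjusted p = 0.492 and 0.472) and was called with it (adjusted p = 0.00177 and 0.00362). It was among the 3 genes most similar in course to Apoa4 over these arrays (r = 0.90). Its pairs and blocked calls are therefore not separate evidence. The summed bile duct markers (5 of 7 listed genes on the arrays) covered 7.91 to 8.56 and 7.85 to 8.38 with WT and S724A IRE1a, against 7.96 to 8.37 with EGFP. Krt7 and Cftr were below 4 on every array, and Sox9 and Epcam were not called with the block. The part of bile duct cells in the Apoa4 difference was not tested.

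**Figure D2:**
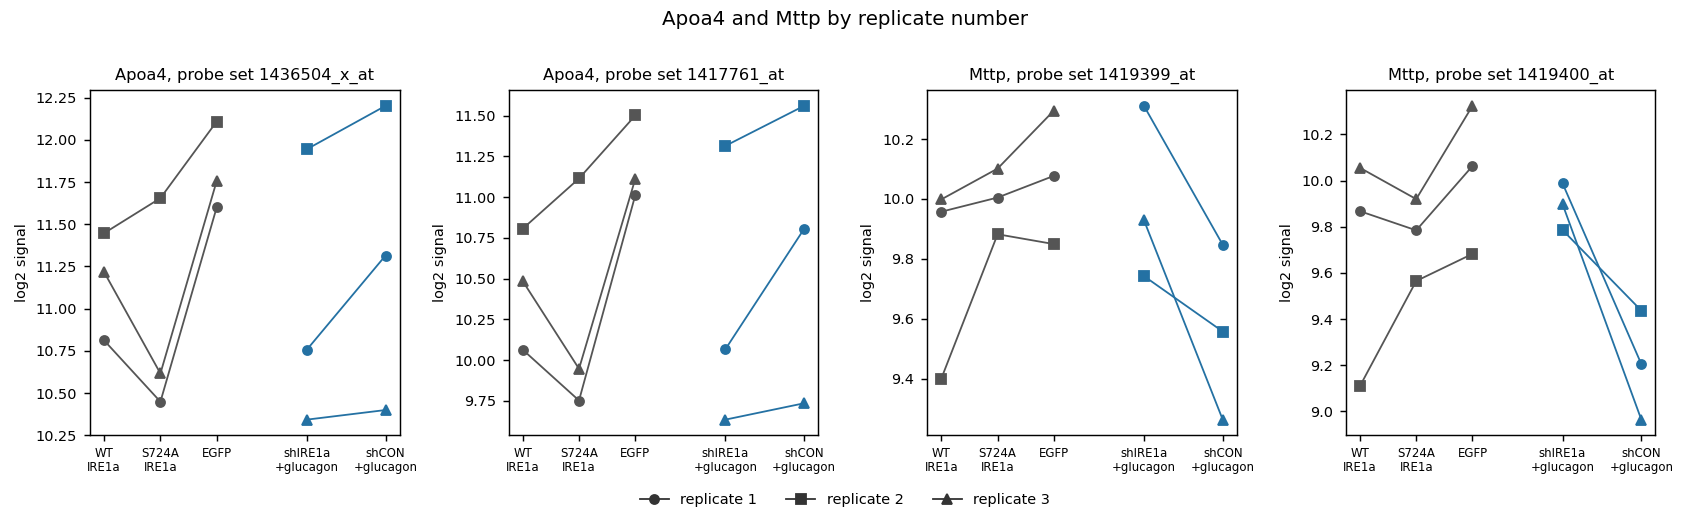
Log2 signal (vertical axis) of the 2 probe sets each of Apoa4 and Mttp by group (horizontal axis), with lines joining arrays of the same replicate number within an arm. Every Apoa4 line is higher at EGFP than at WT IRE1a and S724A IRE1a, and every Mttp line of the hairpin arm is higher at shIRE1a than at shCON.

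Apob and Mttp, the core of the particle and its lipid loader, did not pass in either comparison. Apob read 9.54, 9.16 and 9.91 in WT IRE1a cells and 9.32, 9.12 and 9.07 in S724A IRE1a cells, against 9.97, 9.09 and 9.51 in EGFP cells. The 3 groups overlapped, and the differences from EGFP were 0.01 ± 0.25 (95% confidence interval, CI, -0.52 to 0.55) and -0.35 ± 0.25 (CI -0.89 to 0.18). The dimmer Apob probe set did not follow the first (r = 0.29). It read 6.73, 6.90 and 6.47 with WT IRE1a and 7.17, 7.17 and 7.01 with S724A IRE1a, against 7.30, 7.21 and 7.13 with EGFP. On this probe set all WT IRE1a arrays were below all EGFP arrays, by -0.52 ± 0.29 (adjusted p = 0.352, with the block 0.0247). Which of the Apob probe sets reads the main message was not tested.

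Mttp signals were 9.96, 9.40 and 9.999 in WT IRE1a cells and 10.005, 9.88 and 10.10 in S724A IRE1a cells, against 10.08, 9.85 and 10.30 in EGFP cells. The WT IRE1a array was the lower in 3 of 3 same-number pairs and the S724A IRE1a array in 2 of 3, and all groups overlapped. The differences of -0.29 ± 0.19 and -0.08 ± 0.19 had adjusted p = 0.430 and 0.836, and 0.122 and 0.673 with the block. The second Mttp probe set was also lower in 3 of 3 pairs with each form, by -0.35 ± 0.22 and -0.27 ± 0.22.

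Apoe, the ligand for uptake of remnant particles, and the C apolipoproteins, which act on lipolysis, showed small differences. Apoe read 12.82, 12.62 and 12.57 with WT IRE1a and 12.84, 12.83 and 12.73 with S724A IRE1a, against 12.74, 12.80 and 12.98 with EGFP. The differences were -0.17 ± 0.12 (CI -0.43 to 0.09) and -0.04 ± 0.12 (CI -0.29 to 0.22). Macrophages make Apoe too, and their markers (14 of 14 listed genes on the arrays) summed to 12.93 to 13.18 with WT IRE1a and 13.03 to 13.35 with S724A IRE1a, against 12.58 to 12.77 with EGFP. These sums were carried by Cd68 (10.96 to 12.13 over all arrays) and Cd14 (10.86 to 12.49), while the Kupffer cell genes Clec4f and Timd4 reached at most 5.56 and 3.77. limma called 0 of the 12 marker genes tested in either comparison (7.67% and 6.12% of all genes). With the block it called 1 in each, Cd68 higher with WT IRE1a and Cd14 higher with S724A IRE1a (10.6% and 8.89% of all genes rose). The part of macrophages in the Apoe signal was not tested.

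Apoc1, an inhibitor of lipid transfer and lipolysis, was higher on every array with IRE1a than with EGFP. It read 13.32, 13.34 and 13.53 with WT IRE1a and 13.26, 13.32 and 13.39 with S724A IRE1a, against 13.09, 13.22 and 13.24 with EGFP. The differences of 0.21 ± 0.16 and 0.14 ± 0.16 did not pass, with or without the block (adjusted p = 0.116 and 0.281 with it). Groups that did not overlap were found for 2 of the 10 genes with WT IRE1a (Apoc1 and Apoa4) and 1 of 10 with S724A IRE1a (Apoc1), and for 26.7% and 33.4% of all genes. Apoc3, which slows lipoprotein lipase, differed by 0.17 ± 0.11 (CI -0.08 to 0.41) and 0.04 ± 0.11 (CI -0.20 to 0.29), with overlapping groups.

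Of the A apolipoproteins other than Apoa4, none had groups apart in these 2 comparisons. Apoa5, an activator of triglyceride hydrolysis, read 8.17, 7.90 and 7.58 with WT IRE1a and 8.09, 7.66 and 7.43 with S724A IRE1a, against 7.83, 7.48 and 7.40 with EGFP. It was higher than EGFP in 3 of 3 pairs with each form, by 0.31 ± 0.34 and 0.16 ± 0.34 (adjusted p = 0.399 and 0.658 with the block). Apoa1 and Apoa2, the main proteins of high density lipoprotein, differed by 0.14 ± 0.16 and 0.02 ± 0.21 with WT IRE1a, and by -0.01 ± 0.16 and 0.07 ± 0.21 with S724A IRE1a. Apom, the carrier of sphingosine 1-phosphate in that particle, differed by 0.13 ± 0.33 with each form. Its CI was -0.58 to 0.84 in both comparisons, and its 2 probe sets differed in sign with WT IRE1a (0.13 and -0.08).

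**Figure D3:**
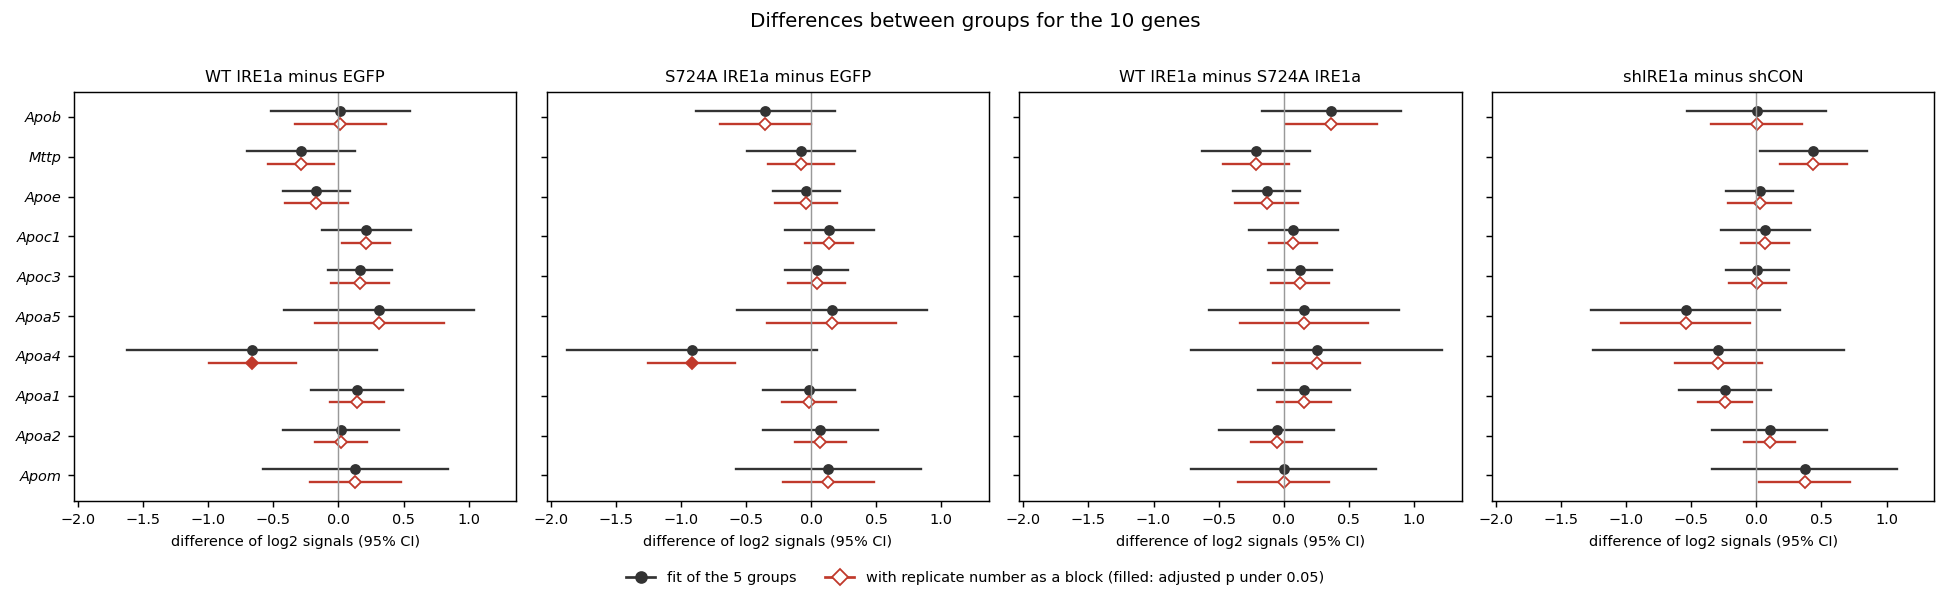
Differences of log2 signals (horizontal axis, with 95% confidence intervals) for the 10 genes (vertical axis) in 4 comparisons, from the fit of 5 groups (circles) and with the replicate number as a block (diamonds, filled where the adjusted p was under 0.05). Only the diamonds of Apoa4 against EGFP are filled, at -0.66 with WT IRE1a and -0.92 with S724A IRE1a.

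WT IRE1a was also set directly against S724A IRE1a, which asks whether the replaced serine mattered for these genes. limma called 0 of the 10 genes, and 0 of all 16294 (0% called), while 997 genes (6.12%), none of them among the 10, had an unadjusted p under 0.05. With the block it called 0 of the 10 and 0.0123% of all genes, 0 of the 17 probe sets and 0.0133% of all probe sets, and with trended and robust variances 2 genes in all. The largest of the 10 differences was that of Apob, 0.37 ± 0.25 (CI -0.17 to 0.90), higher with WT IRE1a in 3 of 3 pairs, but -0.03 with the mean of its probe sets. Its dimmer probe set gave the opposite sign, -0.42 ± 0.29, with all WT IRE1a arrays below all S724A IRE1a arrays. Mttp differed by -0.21 ± 0.19 (CI -0.62 to 0.20) and Apoa4 by 0.25 ± 0.45 (CI -0.71 to 1.21). The groups overlapped for all 10 genes, while 13.3% of all genes had groups apart. These intervals do not show that the 2 forms act alike.

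In glucagon-treated cells, shIRE1a against shCON asked what the loss of IRE1a does to these genes. limma called 0 of the 10 genes, where 0.233% of all genes were called, and with the block again 0 of 10 (1.23%). At an unadjusted p under 0.05 it found 1 of 10, Mttp, against 7.73% of all genes. Mttp read 10.31, 9.74 and 9.93 in shIRE1a cells, against 9.85, 9.56 and 9.26 in shCON cells. It was higher in 3 of 3 pairs, by 0.46, 0.19 and 0.67, though shIRE1a replicate 2 lay below shCON replicate 1. The mean difference was 0.44 ± 0.19 (1.36-fold, CI 0.02 to 0.85, adjusted p = 0.620, with the block 0.105).

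The second Mttp probe set showed a wider gap. It read 9.99, 9.79 and 9.90 in shIRE1a cells, against 9.21, 9.44 and 8.96 in shCON cells, so all 3 arrays with the IRE1a hairpin lay above all 3 without it. The difference of 0.69 ± 0.22 (1.61-fold) had an adjusted p over all probe sets of 0.390, and of 0.0511 with the block, which misses the threshold (0.812% of all probe sets were called with it). Both probe sets correlated at r = 0.869 over the 15 arrays. Mttp was thus lower than EGFP with WT IRE1a and higher than shCON with the hairpin, each uncalled, and the difference between these effects was not tested.

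The other genes of the hairpin arm differed less, or unevenly between pairs. Apoa5 read 8.75, 7.46 and 8.50 in shIRE1a cells, against 9.47, 8.78 and 8.10 in shCON cells. It differed by -0.72 and -1.32 in pairs 1 and 2 but by 0.40 in pair 3, a mean of -0.54 ± 0.34 (CI -1.27 to 0.19). Leaving out replicate 3 in the blocked fit made it the only call among the 10 genes in this arm (-1.02, adjusted p = 0.00765). Apoa4 read 10.76, 11.94 and 10.34 in shIRE1a cells, against 11.31, 12.20 and 10.40 in shCON cells, lower in 3 of 3 pairs, with a mean difference of -0.29 ± 0.45. That difference was 0.16 without shCON replicate 2 and 0.04 without shIRE1a replicate 3. The mean of Apoa4 was therefore below its control with IRE1a in excess, called only with the block. With IRE1a knocked down it was below as well, but uncalled (adjusted p = 0.428 with the block) and with a sign that rests on single arrays.

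Apoa1 was also lower in 3 of 3 pairs, with 13.35, 13.33 and 12.98 in shIRE1a cells, against 13.68, 13.63 and 13.07 in shCON cells, a difference of -0.24 ± 0.16. Its 4 probe sets gave between -0.33 and -0.24. Apom differed by 0.37 ± 0.33, of which pair 3 alone gave 0.96. Apob, Apoe, Apoc1, Apoc3 and Apoa2 differed by 0.00, 0.03, 0.07, 0.01 and 0.10, each less than its standard error. No gene of the 10 had groups apart, against 11.5% of all genes.

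The level of each gene across all 5 groups showed a split by arm for some of them. Apoc1, Apoc3, Apoe and Apoa2 were higher on all 9 arrays of the 48-hour groups than on all 6 of the glucagon groups. The share of all genes that split this way was not counted, so the split is not shown to be particular to these genes. Apoa2 averaged 13.92 ± 0.07, 13.97 ± 0.03 and 13.90 ± 0.05 with WT IRE1a, S724A IRE1a and EGFP, and 13.30 ± 0.44 and 13.20 ± 0.45 with shIRE1a and shCON (SD, n = 3 each). Apoc1 averaged 13.40 ± 0.12, 13.32 ± 0.06 and 13.18 ± 0.08, and 12.67 ± 0.30 and 12.60 ± 0.32 in the same order. Within each arm the neighbouring groups of these 4 genes overlapped, except Apoc1 with S724A IRE1a over EGFP. The arms differ in virus, time and glucagon, which cannot be told apart, so no test was made between them.

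Apoc3 and Apoe showed the same split with smaller gaps. Apoc3 averaged 13.45 ± 0.11, 13.33 ± 0.15 and 13.28 ± 0.08 in the WT IRE1a, S724A IRE1a and EGFP groups, and 12.94 ± 0.13 and 12.93 ± 0.15 in the shIRE1a and shCON groups. Apoe averaged 12.67 ± 0.13, 12.80 ± 0.06 and 12.84 ± 0.12, and 12.36 ± 0.20 and 12.34 ± 0.13. Apoa5, Apom and Apob had their highest means in the glucagon arm instead, in the order shCON, shIRE1a, WT IRE1a, S724A IRE1a and EGFP for Apoa5, but each group in that order overlapped the next. For Apoa1, Mttp and Apoa4, too, every group overlapped its neighbour in the order of means. Apoa1 ran from WT IRE1a at the top to shIRE1a at the bottom, Mttp from EGFP to shCON, and Apoa4 from EGFP to S724A IRE1a.

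The spread between replicates differed between the arms as well. The SD was wider in the glucagon arm for 10 of 10 genes, by the mean of the SDs of its groups, with 0.44 against 0.05 in the 48-hour arm for Apoa2 and 0.68 against 0.29 for Apoa5. For Apob it was only 0.35 against 0.32. The same count over all genes was not made, so the wider SD is not shown to be particular to these genes. The order of replicate numbers was the same in both hairpin groups for Apoa2 and Apoa4, but not for Apoa5. Apoa5 was lowest in replicate 2 in shIRE1a cells (7.46) and in replicate 3 in shCON cells (8.10). In the shIRE1a and shCON cells Apoa2 was lowest in replicate 2 (12.82 and 12.77) and highest in replicate 3 (13.67 and 13.67), and Apoa4 was highest in replicate 2 (11.94 and 12.20) and lowest in replicate 3 (10.34 and 10.40). With arm means subtracted, Apoa2 correlated with Apoc1 at r = 0.82 and with Apoa4 at r = -0.75 over 15 arrays, and Apoe with Apoc3 at r = -0.78, as a description of arrays that share these replicate numbers.

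Among all other genes, those with the most similar course to Apoa4, by Pearson's r over 15 arrays with arm means subtracted, were Fhit (0.92), Krt19 (0.90) and Snx5 (0.87). Mttp was followed by Tmem79 (0.86), Cpn2 (0.84) and Miga2 (0.84). Sh3glb1 (0.85), Gm9895 (0.84) and Mpp1 (0.82) were nearest to Apob. These are the highest values over all 16294 genes tested, and no test is attached to them.

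With the IRE1a viruses, no apolipoprotein gene described above passed without the block, and only Apoa4 was called with it. Several genes for assembling and exporting the particle passed without the block. The gene lists were chosen with earlier results of these data known. Counts within a list therefore cannot show an excess over the shares of all genes. Of 24 listed partners of VLDL assembly and secretion, 23 were tested, and 3 rose and 2 fell with WT IRE1a, where 5.08% of all genes rose and 2.59% fell. With S724A IRE1a 4 rose and 2 fell, where 3.87% of all genes rose and 2.25% fell. With the block 4 rose and 4 fell with WT IRE1a, where 10.6% of all genes rose and 4.99% fell, and 4 rose and 3 fell with S724A IRE1a, where 8.89% rose and 5.52% fell. The list's median difference was 0.10 with WT IRE1a and 0.05 with S724A IRE1a, beside 0.00 and -0.01 over all genes. P4hb, the protein disulfide isomerase that holds the Mttp product in its soluble complex, read 12.94, 12.87 and 13.14 with WT IRE1a and 13.08, 13.32 and 13.26 with S724A IRE1a, against 11.95, 11.76 and 11.99 with EGFP. It rose by 1.08 ± 0.12 (2.12-fold, adjusted p = 5.69e-05) and by 1.32 ± 0.12 (2.50-fold, adjusted p = 9.18e-06).

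Surf4, a cargo receptor that carries lipoproteins out of the ER, read 11.14, 11.15 and 11.41 with WT IRE1a and 11.49, 11.51 and 11.58 with S724A IRE1a, against 10.29, 10.17 and 10.19 with EGFP. It rose by 1.02 ± 0.15 (2.02-fold, adjusted p = 0.000486) and by 1.31 ± 0.15 (2.47-fold, adjusted p = 5.92e-05), and all 5 of its probe sets passed in each comparison. Sar1a, a GTPase of the coat that forms export vesicles, rose by 0.67 ± 0.11 and 0.76 ± 0.11, while its close relative Sar1b, the form tied to chylomicron export in humans, differed by 0.10 and -0.02. Mia3, which fits bulky cargo into such vesicles, rose by 0.63 ± 0.12 with S724A IRE1a and differed by 0.31 ± 0.12 with WT IRE1a (adjusted p = 0.00668 and 0.161). Of its 4 probe sets 2 passed, and all 4 ranged between -0.22 and 1.52 with S724A IRE1a.

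Dgat2 and Ces1g were the partners that fell without the block. Dgat2, which makes triglyceride, read 8.34, 8.11 and 8.33 with WT IRE1a and 8.31, 8.20 and 9.80 with S724A IRE1a, against 10.05, 9.999 and 9.96 with EGFP. It fell by 1.74 ± 0.29 with WT IRE1a (3.35-fold lower, adjusted p = 0.00166) and by 1.23 ± 0.29 with S724A IRE1a (adjusted p = 0.0203). S724A IRE1a replicate 3 stood apart at nearly the EGFP level, and the second call was lost without any 1 EGFP array, without S724A IRE1a replicate 1 or 2, with a floor of 4 and in the 6 arrays alone (adjusted p up to 0.0987). Ces1g, a carboxylesterase, fell by 1.96 ± 0.31 and 1.83 ± 0.31 (adjusted p = 0.00109 and 0.0021), with signals of 4.42, 4.26 and 4.53 and of 4.86, 4.44 and 4.29, against 6.20, 6.54 and 6.36 with EGFP. With IRE1a these lie near the level of 4 used as a filter, so no fold is given. Its relative Ces1d differed by -0.97 and -0.68 and was called with the block (adjusted p = 0.0043 and 0.0311). Dgat2, Mia3, Sar1b and Ces1d, and among the regulators Creb3l3 and Nr5a2, were named after their values were seen.

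**Figure D4:**
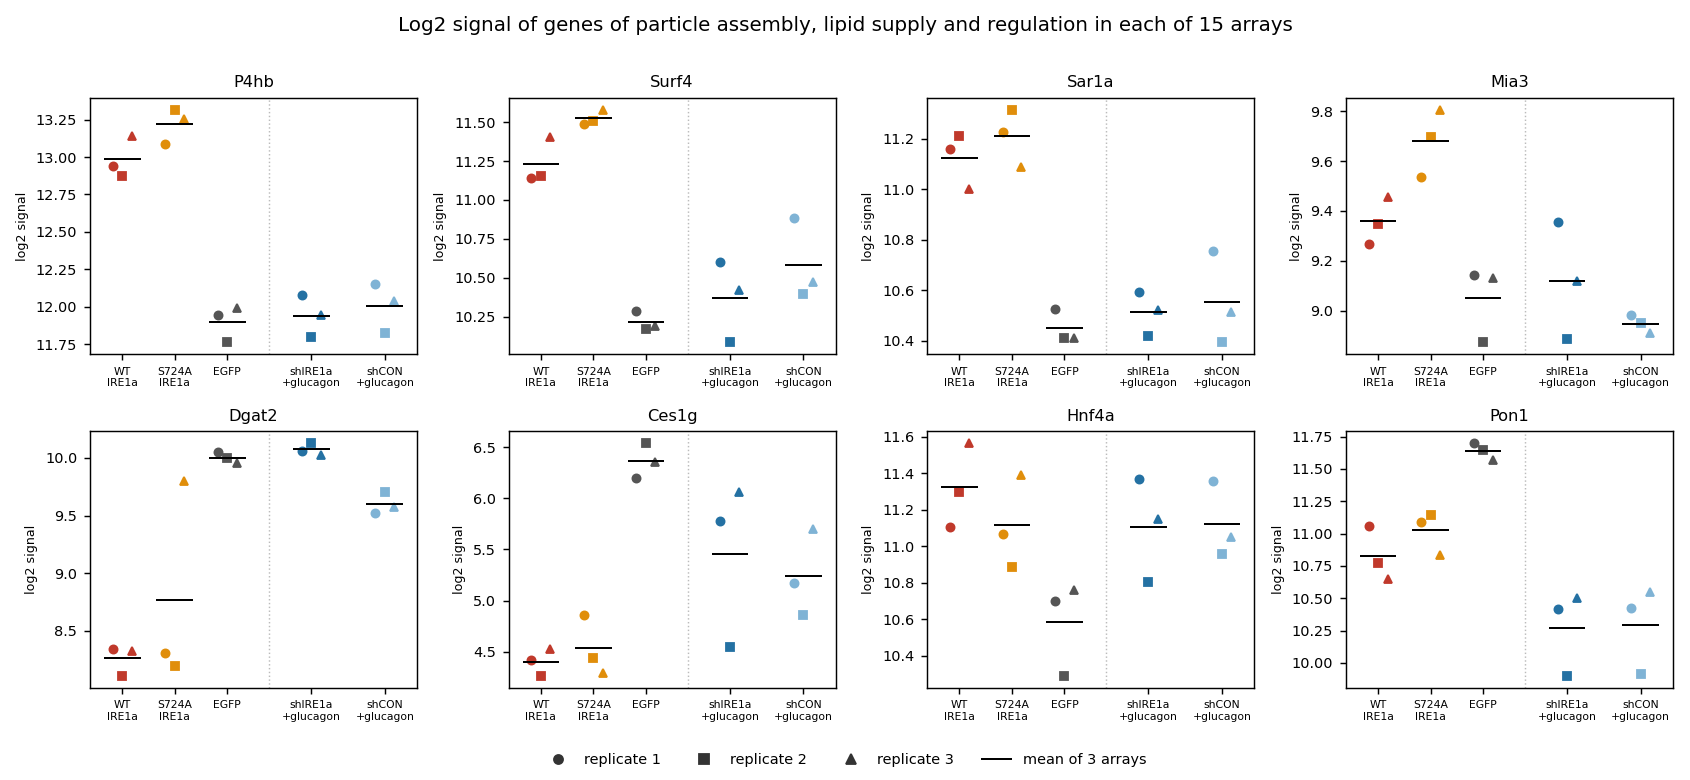
Log2 signal (vertical axis, a separate scale for each gene) of 8 genes of particle assembly, lipid supply and regulation on all 15 arrays by group (horizontal axis), with symbols for the replicate number and a bar at the mean of 3 arrays. P4hb, Surf4, Sar1a, Mia3 and Hnf4a are higher, and Ces1g, Dgat2 and Pon1 lower, on every WT IRE1a and S724A IRE1a array than on every EGFP array. Of all genes tested, 26.7% had groups apart with WT IRE1a against EGFP, and 33.4% with S724A IRE1a.

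With the IRE1a hairpin, 0 of the 23 partners passed in limma (0.233% of all genes), also with the block (1.23%). P4hb and Surf4 differed by -0.07 ± 0.12 and -0.21 ± 0.15 and Ces1g by 0.22 ± 0.31. Dgat2 read 10.06, 10.13 and 10.03 in shIRE1a cells, against 9.52, 9.71 and 9.57 in shCON cells, so that all 3 arrays lay above, by 0.47 ± 0.29 (adjusted p = 0.713). Whether these effects differ from those of IRE1a in excess was not tested.

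Of 14 further apolipoproteins and particle proteins, all tested, 1 rose and 1 fell with WT IRE1a (5.08% and 2.59% of all genes) and limma called 0 with S724A IRE1a (6.12%). With the block 2 rose and 2 fell with WT IRE1a (10.6% and 4.99% of all genes), and 1 rose and 2 fell with S724A IRE1a (8.89% and 5.52%). Pon1, an antioxidant esterase carried by high density lipoprotein, averaged 10.83 ± 0.21 with WT IRE1a and 11.03 ± 0.17 with S724A IRE1a, against 11.64 ± 0.07 with EGFP (SD, n = 3 each). It fell by 0.81 ± 0.18 with WT IRE1a (1.76-fold lower, adjusted p = 0.0124), a call lost without WT IRE1a replicate 3 (adjusted p = 0.0567). With S724A IRE1a its -0.61 ± 0.18 did not pass (adjusted p = 0.0608), but did with the block (0.00155), in the 6 arrays alone (0.0157) and after quantile normalization (0.0443). Pon3, a related enzyme, rose by 0.57 ± 0.17 with WT IRE1a (adjusted p = 0.0492). That call did not hold without any 1 of the 6 arrays, after quantile normalization, without the filter and with a floor of 4 (adjusted p up to 0.171), and with S724A IRE1a its 0.42 ± 0.17 did not pass (adjusted p = 0.137), but did with the block (0.0216) and in the 6 arrays alone (0.0408).

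Of 28 listed transcription regulators of apolipoprotein genes, 26 were tested, and 3 rose with WT IRE1a, Xbp1, Hnf4a and Nr0b2 (5.08% of all genes), and with S724A IRE1a 1, Xbp1 (3.87%). limma called 0 as lower in either. With the block 5 rose in each (10.6% and 8.89% of all genes). Hnf4a, a nuclear receptor that drives Apob, Mttp and many apolipoprotein genes in the liver, read 11.10, 11.30 and 11.57 with WT IRE1a and 11.07, 10.89 and 11.39 with S724A IRE1a, against 10.70, 10.29 and 10.76 with EGFP. With WT IRE1a the increase was 0.74 ± 0.19 (1.67-fold, adjusted p = 0.0237), and it lost its call without EGFP replicate 2, WT IRE1a replicate 2 or WT IRE1a replicate 3 and with a floor of 4 (adjusted p up to 0.126). Its 0.53 ± 0.19 with S724A IRE1a passed only with the block (adjusted p = 0.102, with the block 0.0113). Of the 4 Hnf4a probe sets 2 passed with WT IRE1a, where all 4 ranged between 0.50 and 0.81, and 0 passed with S724A IRE1a. Nr0b2, a repressor of nuclear receptors, rose by 0.74 ± 0.16 and differed by 0.51 ± 0.16 (adjusted p = 0.0091 and 0.0711, the second 0.0388 with the block). Creb3l3, an ER-bound factor that drives Apoa4 in mouse liver, differed by 0.75 and 0.54 and was called with the block (adjusted p = 0.00483 and 0.0303), as was Nr5a2, a nuclear receptor, at 0.45 and 0.60 (adjusted p = 0.0307 and 0.00909).

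Genes that act on the particle after secretion made up the last 2 lists. Of 15 receptors and clearance genes 12 were tested, and limma called 0 with WT IRE1a (7.67% of all genes) and 1 as lower with S724A IRE1a (2.25%). With the block 2 fell with WT IRE1a (4.99% of all genes) and 1 with S724A IRE1a (5.52%). The gene called without the block was Vldlr, the VLDL receptor, at -1.64 ± 0.43 (adjusted p = 0.0362), with signals of 6.58, 7.61 and 7.36 with S724A IRE1a, against 8.44, 8.86 and 9.18 with EGFP. The call was lost in 8 settings (adjusted p up to 0.125), while with WT IRE1a its -1.19 ± 0.43 (adjusted p = 0.115) passed with the block (0.000415) and in the 6 arrays alone (0.0214). Of the 6 Vldlr probe sets 1 passed without the block with S724A IRE1a, and all 6 ranged between -1.67 and -0.48. With WT IRE1a 0 of the 6 passed, and they ranged between -1.21 and 0.01. Of 15 genes of lipolysis and high density lipoprotein remodelling 11 were tested, and limma called 0 with WT IRE1a (7.67% of all genes) and 1 as higher with S724A IRE1a (3.87%). With the block 2 rose with WT IRE1a (10.6% of all genes), and 3 rose and 1 fell with S724A IRE1a (8.89% and 5.52%). Lmf1, a maturation factor of lipases, was the call without the block, at 0.55 ± 0.13 (adjusted p = 0.0257). Its second probe set differed by -0.27, and the call was lost without any 1 of the 6 arrays, after quantile normalization and with the mean of both probe sets (adjusted p up to 0.331). With the hairpin limma called 0 genes of these 4 lists, with and without the block (1.23% and 0.233% of all genes).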

How the data were processed

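The 15 Affymetrix mouse arrays were processed by the authors with GCRMA, per the submitters' processing notes, which corrects background by probe sequence, normalizes across arrays and summarizes each probe set. No version of it was stated. The authors deposited a log2 signal for every probe set on every array. That scale was read from the values (array medians 5.69 to 5.83, highest value 14.8), since the labels do not state it. No 2 arrays held identical values.

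Genes were named from the platform's annotation, control probe sets were left out, and for each gene the probe set with the highest mean over 15 arrays stood for it. A gene was tested when its signal was 4 or more in at least 3 of 15 arrays, which left 16294 genes. In R 4.3.3, limma 3.58.1 (lmFit and eBayes) fitted 5 group means to all 15 arrays with 10 residual degrees of freedom. P-values are two-sided with Benjamini-Hochberg adjustment over all genes of a comparison, or over all 30046 probe sets tested. With 3 arrays a group, an exact permutation test of a single gene could not have passed. Precision is limited by the number of arrays: the median half-width of a 95% confidence interval was 0.30 over all genes tested, with WT IRE1a against EGFP. Some of the 10 genes had wider intervals in that comparison, such as Apoa4 (-1.62 to 0.30) and Apoa5 (-0.42 to 1.04).

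Arrays of the same number had residuals that moved together: within an arm, all 12 pairs correlated at r of 0.20 to 0.69, against 4 of 18 over 0.1 across arms. The replicate number was therefore also fitted as a block within each arm (6 residual degrees of freedom). The gene test was tried on simulated data with independent noise on every array. That trial held no effect shared by arrays of the same number, so it cannot show how either fit handles one. The genes and lists were chosen with earlier results of these data known. Named besides the 10 genes were Ern1 and Xbp1, up to 4 genes past the threshold per list and comparison by smallest p, and the 3 genes most like Apob, Mttp and Apoa4. Other settings were no filter, a filter of 6, a floor of 4, median centring or quantile normalization, the mean of a gene's probe sets, trended and robust variances, a fit to the 6 arrays compared, and leaving out each array. Leaving out a replicate number in the blocked fit was added after the data were seen.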

Additional observations from a re-analysis of the deposited data

How the results depend on the processing

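The 40 differences of the 10 genes (4 comparisons) were each recomputed in 18 settings, 720 values in all, of which 662 kept their direction and their side of the threshold. The 7 that newly passed came from fits with the replicate block, for Apoa4 with both forms of IRE1a and, without replicate 3, for Apoa5 with the hairpin. The other 51 values, from 17 differences, changed sign without passing in either setting. Of these 17, Apob between both forms of IRE1a (0.37, but -0.03 when its probe sets are averaged) and Apoa4 with the hairpin (-0.29, up to 0.16) were the largest. With the block within each arm the count among the 10 genes was 1 with WT IRE1a and 1 with S724A IRE1a, and among their 17 probe sets 3 and 2. Leaving out 1 replicate number in that blocked fit gave 0 to 1 gene for WT IRE1a, S724A IRE1a and the hairpin. Over all genes, the block gave 2539 with WT IRE1a, 2347 with S724A IRE1a, 2 between both and 200 with the hairpin. Leaving out 1 array gave 715 to 1108 genes with WT IRE1a, 485 to 979 with S724A IRE1a and 13 to 75 with the hairpin. The hairpin count was 23 after median centring and 5 in the 6 arrays alone, and WT against S724A IRE1a gave 2 with trended and robust variances. The cause was not tested, apart from the fewer arrays and degrees of freedom by construction. The calls of Apoa4 rest on the block and on replicate 1. Signals near the filter level of 4 are read with less certainty, which touches Ces1g with IRE1a but none of the 10 genes.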
